A study of Mus musculus with 18 samples.

Results

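Expression of 9 genes of cerebellar granule neurons was followed in the forebrain, midbrain and hindbrain of Fmr1CRE and wild-type mice at postnatal day 25. The genes were Neurod1, Zic1, Zic2, Zic4, Barhl1, Cbln1, Cbln3, Fat2 and Etv1, chosen by name and matched through the GENCODE M21 annotation to 9 of the 53468 genes in the count table. Fmr1CRE mice carry, by CRISPR/Cas9 knock-in on C57BL/6, a nucleotide change orthologous to a human variant in a cis-regulatory element (CRE), an intergenic sequence assigned to FMR1 as its target gene. The labels of the RNA libraries do not say which of the established knock-in lines was used. There were 3 Fmr1CRE and 3 wild-type mice from the same litter, and each mouse gave 1 library of poly(A) RNA per region, 18 in all. The change is carried in the germline, with no promoter or Cre that limits it to a cell type, and gene counts cannot show it, so they do not check the genotype labels.

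Granule neurons are the small glutamatergic neurons of the cerebellar granule layer and are the most numerous neurons of the brain. They arise from the rhombic lip under the transcription factor Atoh1, multiply in the external granule layer, migrate inward past the Purkinje cells and send parallel fibres onto the dendrites of Purkinje cells. The genes followed here have roles along that course. Neurod1 is a basic helix-loop-helix factor of differentiating granule neurons, Zic1, Zic2 and Zic4 are zinc finger factors of granule cell progenitors and neurons, Barhl1 is a homeobox factor of the rhombic lip lineage, and Etv1 is an ETS factor of maturing granule neurons. Cbln1 and Cbln3 encode secreted cerebellins, of which Cbln1 organises the synapses of parallel fibres on Purkinje cells, and Fat2 encodes a giant protocadherin of granule cells. Most of these genes are not confined to the cerebellum. Neurod1 and the Zic genes are also expressed in parts of the forebrain, Etv1 in neurons of cortical layer 5, Barhl1 in midbrain nuclei, and Cbln1 in brainstem and thalamus.

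Each library held between 22455512 and 28061185 counts. The libraries labelled replicate 3 carry a limit in forebrain. Genes were taken that separated the Fmr1CRE from the wild-type mouse numbered 3 by at least 2 on the log2 scale in all regions, with 1 sign shared by midbrain and hindbrain. There were 5 such genes, and in forebrain 5 of the 5 had the opposite sign, against 2 of 8 for replicate 1 and 5 of 9 for replicate 2. Whether a library of these mice goes against its label, and which, cannot be told from these genes. The main results that rest on these mice are therefore also given without both mice of replicate 3. The libraries were pooled for sequencing, which of them shared a pool is not given in the sources used here, and a difference between pools was not tested.

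The promoters of 4 of the genes are shown because they mark the patterns described further on. Cbln3 and Fat2 were each the nearest gene to the other in profile, Barhl1 was highest in midbrain, and Neurod1 is itself a factor that binds E-boxes. The sequences run 5′ to 3′ from 250 bases before to 50 bases after the transcription start that RefSeq gives on GRCm38.p6, and capitals mark the E-box CANNTG, whose reverse complement has the same form.
Cbln3 (chr14:55884207-55884506, minus strand): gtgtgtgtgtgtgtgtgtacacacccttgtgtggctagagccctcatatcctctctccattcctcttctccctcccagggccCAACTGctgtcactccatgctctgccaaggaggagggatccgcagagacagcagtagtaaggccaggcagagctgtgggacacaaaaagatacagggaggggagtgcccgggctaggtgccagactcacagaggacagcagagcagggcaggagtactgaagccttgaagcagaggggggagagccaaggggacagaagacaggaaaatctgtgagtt
Fat2 (chr11:55312208-55312507, minus strand): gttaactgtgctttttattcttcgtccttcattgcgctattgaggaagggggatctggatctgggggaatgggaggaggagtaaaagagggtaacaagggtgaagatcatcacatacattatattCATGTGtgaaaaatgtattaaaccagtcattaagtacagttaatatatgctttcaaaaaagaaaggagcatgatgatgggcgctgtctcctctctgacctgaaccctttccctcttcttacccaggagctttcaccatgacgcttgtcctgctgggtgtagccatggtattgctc
Barhl1 (chr2:28916619-28916918, minus strand): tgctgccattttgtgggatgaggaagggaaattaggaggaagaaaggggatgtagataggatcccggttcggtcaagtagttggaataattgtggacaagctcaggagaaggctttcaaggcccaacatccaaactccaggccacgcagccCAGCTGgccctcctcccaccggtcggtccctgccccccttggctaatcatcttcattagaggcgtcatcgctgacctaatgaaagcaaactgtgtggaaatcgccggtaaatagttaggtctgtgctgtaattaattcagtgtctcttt
Neurod1 (chr2:79456587-79456886, minus strand): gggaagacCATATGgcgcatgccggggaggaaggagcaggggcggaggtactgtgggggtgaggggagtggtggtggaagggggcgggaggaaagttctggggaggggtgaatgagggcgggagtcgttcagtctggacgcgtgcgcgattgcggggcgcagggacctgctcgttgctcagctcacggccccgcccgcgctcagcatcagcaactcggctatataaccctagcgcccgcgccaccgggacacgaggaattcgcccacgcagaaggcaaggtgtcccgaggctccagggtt
RefSeq windows were at hand for 7 of the 9 genes, with 9 windows in all. An E-box was found in 8 of the 9 windows, against 72.3% of 32851 promoter windows of the same length. The motif TTGGC, a partial site of nuclear factor I, searched on both strands and which cannot coincide with the E-box, was found in 4 of the 9, against 46.7% of all windows. The Fat2 window lies inside the span that GENCODE gives the gene, downstream of the start in that annotation. The Cbln3 window held 1 E-box and 2 TTGGC matches, and the Fat2 window held 1 E-box and 0 TTGGC matches. These matches describe the letters only.

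In the mouse annotation Neurod1 (ENSMUSG00000034701) lies on chromosome 2 from 79452521 to 79456751 and Barhl1 (ENSMUSG00000026805) on chromosome 2 from 28907679 to 28916668, both on the minus strand. Zic1 (ENSMUSG00000032368) lies on chromosome 9 from 91358058 to 91365810 on the minus strand and overlaps Zic4 (ENSMUSG00000036972), from 91362413 to 91389348 on the plus strand, by 3398 bases, of which 60 are exonic in both. Zic2 (ENSMUSG00000061524) lies on chromosome 14 from 122475435 to 122479852 on the plus strand, 9758 bases from Zic5. Cbln1 (ENSMUSG00000031654) lies on chromosome 8 from 87468405 to 87472609 and Cbln3 (ENSMUSG00000040380) on chromosome 14 from 55878913 to 55884392, both on the minus strand. Fat2 (ENSMUSG00000055333) lies on chromosome 11 from 55250609 to 55336564 on the minus strand and Etv1 (ENSMUSG00000004151) on chromosome 12 from 38779380 to 38870484 on the plus strand. Cbln1 lies within the span of the antisense lincRNA Gm2694 but shares 0 exonic bases with it. Neurod1 lies within the span of Cerkl on the same strand and shares 201 exonic bases with it, 7.37% of the Neurod1 exons. Whether counting used the strand is not given in the sources used here, so reads on these shared bases cannot be assigned with certainty.

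The first question was in which regions these genes were expressed. Levels are given as CPM, the count per 1000000 counts of the library after TMM scaling, and genes are ranked within a region by CPM per kilobase. Of the 9 genes, 7 were highest on average in hindbrain, and Barhl1 was highest in midbrain. Etv1 had close means in these regions, 117 ± 16.4 CPM (SD, n = 6) in midbrain and 115 ± 17.4 in hindbrain, and their order turned with total counts alone. Per kilobase, Zic1 was the most abundant in hindbrain, at 106.6 ± 29.1 (SD, n = 6) CPM per kilobase, followed by Cbln1 at 89.8 ± 26.4, Cbln3 at 46.5 ± 16.7, Neurod1 at 43.7 ± 16.4 and Etv1 at 27.1 ± 4.09. Zic2 at 16.4 ± 3.78, Zic4 at 15.2 ± 4.34, Fat2 at 5.53 ± 1.70 and Barhl1 at 1.26 ± 0.42 CPM per kilobase came after them. The neighbours Zic1 and Cbln1, Cbln3 and Neurod1, and Zic2 and Zic4 in this order lay closer together than 1 SD. In forebrain Zic1 at 24.8 ± 3.95 and Etv1 at 16.1 ± 2.80 CPM per kilobase led, while Cbln3, Fat2 and Barhl1 were each under 1 on average.

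**Figure D1:**
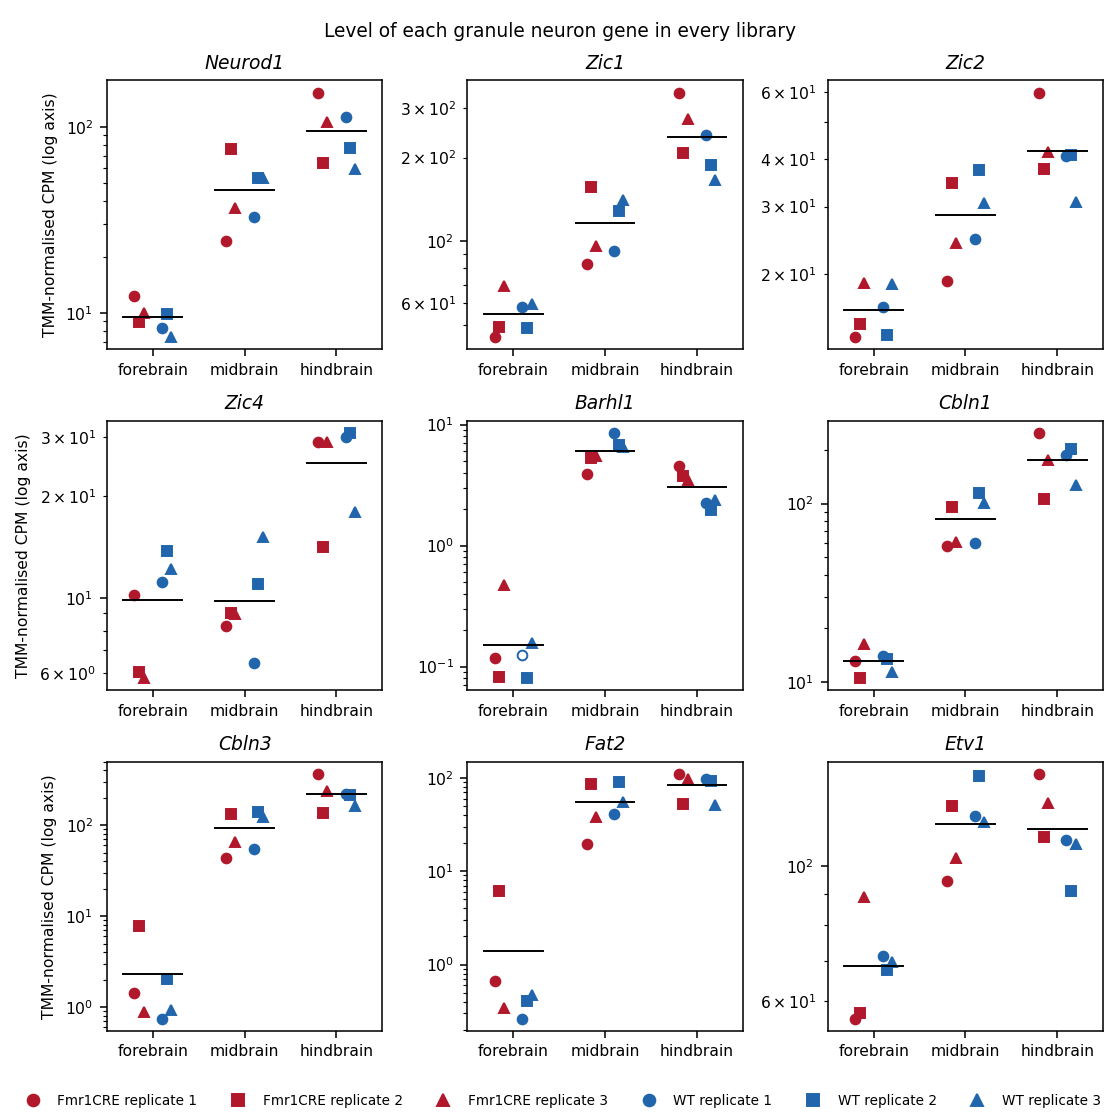
Level of each gene in every library, as TMM-normalised CPM on a log axis, by region, with Fmr1CRE mice in red, wild-type mice in blue, the symbol giving the replicate and the black line the mean of 6 libraries. Cbln3 and Fat2 in forebrain of Fmr1CRE replicate 2 stood at 7.73 and 6.17 CPM, above the other 5 forebrain libraries, and the open circle marks Barhl1 at 0 counts, drawn at the level of 3 counts.

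All 9 genes were higher in hindbrain than in forebrain, with no overlap between the 6 hindbrain and the 6 forebrain libraries for any of them. Over all 20363 genes tested, edgeR called 51.7% in this comparison, made up of 25.3% higher and 26.4% lower in hindbrain. Libraries of the regions did not overlap for 27.7% of all genes, including 13% that were higher in hindbrain. The median log2 difference of the 9 genes was 3.33, against 0.0085 over all genes tested. In bulk tissue, fewer cells of a type and less RNA per cell cannot be told apart. Of all genes called, 48.9% were higher in hindbrain with TMM scaling and 61.1% with total counts alone, which moved the median of all genes to 0.15, and the 9 genes were called higher under both. They were also all called, 9 of 9, without both mice of replicate 3 and in wild-type libraries alone.

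The cerebellin Cbln3 and the protocadherin Fat2 differed most. Cbln3 had a median of 1.18 CPM in forebrain (range 0.748 to 7.73), 94.4 in midbrain (range 43.7 to 140) and 216 in hindbrain (range 137 to 367). Its log2 difference of hindbrain from forebrain was 6.75 ± 0.53 (SE) (edgeR, adjusted p = 3.11e-08), a 108-fold difference with a 95% confidence interval from 49.1-fold to 236-fold. Fat2 had a median of 0.436 CPM in forebrain (range 0.264 to 6.17), 48.1 in midbrain (range 19.8 to 89.6) and 94.9 in hindbrain (range 50.7 to 110). Its log2 difference was 6.44 ± 0.61 (SE) (edgeR, adjusted p = 2.56e-07). In both genes the forebrain library of Fmr1CRE replicate 2 was the highest of its region, and without Fmr1CRE replicate 2 and both mice of replicate 3 the log2 differences were 7.62 for Cbln3 and 7.74 for Fat2, which turned their order. Cbln1, the cerebellin that bridges the parallel fibre synapse, was less restricted. Its medians were 13.3 CPM in forebrain (range 10.6 to 16.3), 78.7 in midbrain (range 58.3 to 115) and 182 in hindbrain (range 107 to 248), and its log2 difference of hindbrain from forebrain was 3.73 ± 0.24 (SE) (edgeR, adjusted p = 2.29e-09).

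Among the transcription factors the hindbrain excess was graded. Neurod1 ran from 7.39 to 12.4 CPM in forebrain and from 59.1 to 153 in hindbrain, a log2 difference of 3.33 ± 0.29 (SE) (edgeR, adjusted p = 9.86e-08). Zic1 ran from 45.3 to 69.0 CPM in forebrain and from 167 to 342 in hindbrain, a log2 difference of 2.09. Zic2 and Zic4 differed by 1.38 and 1.40 on the log2 scale, with forebrain means of 38.2% and 39.2% of the hindbrain mean. Barhl1 was close to absent from forebrain, at 0 to 11 counts per library, and its log2 difference was 4.40 ± 0.36 (SE) (edgeR, adjusted p = 4.20e-08). The 11 counts were those of Fmr1CRE replicate 3, without which the difference was 4.99, and without both mice of that number it was 5.41. Etv1 differed least, by 0.74 ± 0.12 (SE) (edgeR, adjusted p = 5.25e-05), with a forebrain mean of 59.4% of the hindbrain mean. The confidence intervals of the log2 differences, 0.50 to 0.99 for Etv1 and 5.62 to 7.88 for Cbln3, do not meet.

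**Figure D2:**
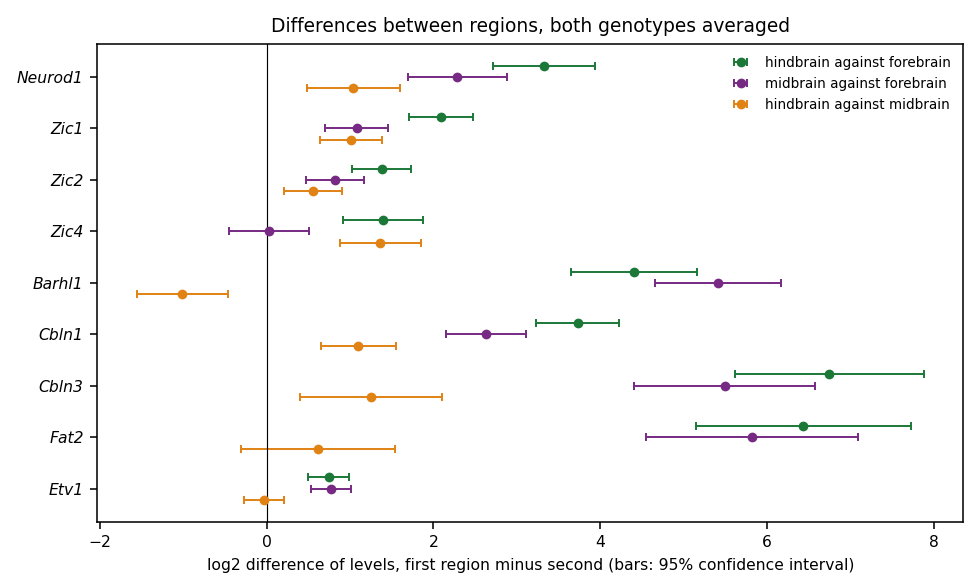
Log2 differences of the 9 genes between regions from the fit of all 18 libraries, with 95% confidence intervals as bars, for hindbrain against forebrain, midbrain against forebrain and hindbrain against midbrain. Cbln3 and Fat2 differ from forebrain by more than 5 in either other region, and Barhl1 alone lies clearly below 0 for hindbrain against midbrain, at -1.01.

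The midbrain libraries held these genes as well. Of the 9 genes, 8 were called higher in midbrain than in forebrain, and the same 8 did not overlap between the regions. Over all genes tested, edgeR called 19.3%, made up of 9.96% higher and 9.38% lower in midbrain. Libraries did not overlap for 10.5% of all genes, including 5.35% that were higher in midbrain. Of all genes called, 51.5% were higher in midbrain with TMM scaling and 67.8% with total counts alone. The largest log2 differences were 5.82 for Fat2 (standard error 0.60), 5.49 for Cbln3 (standard error 0.51) and 5.41 for Barhl1 (standard error 0.36). Their order was not stable, since without both mice of replicate 3 Barhl1 stood at 6.40, Fat2 at 5.77 and Cbln3 at 5.19. Fat2 stood at 6.56 without Fmr1CRE replicate 2 and at 7.32 in wild-type libraries alone, where Cbln3 and Barhl1 stood at 6.40 and 6.38. Cbln1 followed with 2.63 and Neurod1 with 2.29, and Zic1, Zic2 and Etv1 with 1.08, 0.82 and 0.77. Zic4 did not pass the test, with a log2 difference of 0.03 and a confidence interval from -0.45 to 0.51 (edgeR, adjusted p = 0.943). It ran from 5.79 to 13.8 CPM in forebrain and from 6.40 to 15.1 in midbrain, so that these regions overlapped almost wholly for this gene.

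The midbrain level of the cerebellar genes varied widely between mice. Cbln3 stood at 43.7, 134 and 64.9 CPM in the midbrain of Fmr1CRE replicates 1, 2 and 3 and at 54.7, 140 and 124 CPM in that of wild-type replicates 1, 2 and 3. Fat2 stood at 19.8, 85.7 and 38.3 CPM in the same Fmr1CRE libraries and at 41.1, 89.6 and 55.2 CPM in the wild-type ones. In both genes the midbrains of the 2 mice numbered 2 were the highest and that of Fmr1CRE replicate 1 was the lowest. The hindbrain ran the other way in Fmr1CRE mice, where Cbln3 stood at 367, 137 and 235 CPM in replicates 1, 2 and 3. Relative to its size, the sum of midbrain and hindbrain CPM varied less, from 271 to 411 for Cbln3, against 43.7 to 140 in midbrain alone. Its span in CPM was the wider.

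Markers of other cerebellar and hindbrain cells were followed beside these levels. Pcp2, a defining gene of Purkinje cells, stood at 25.3, 55.4 and 30.1 CPM in the midbrain of Fmr1CRE replicates 1, 2 and 3 and at 46.0, 65.7 and 90.8 CPM in that of the wild type. It was lowest in the same midbrain as Cbln3, but highest in wild-type replicate 3. In hindbrain it stood between 101 and 238 CPM, and in forebrain between 0 and 1.36. The 7 Purkinje cell markers summed to between 915 and 1776 CPM in midbrain and to between 1460 and 2916 in hindbrain. Of the 7, 6 were called higher and 0 lower in hindbrain than in midbrain, against 24% and 25.1% of all genes tested. The forebrain sum of the Purkinje cell markers, 497 to 800 CPM, came with Pcp2 at 0 counts in 2 of the 6 libraries. The 7 medulla and pons markers summed to between 8.59 and 47.2 CPM in midbrain, between 167 and 266 in hindbrain and between 0.118 and 0.298 in forebrain, where Hoxc4 was at 0 in all 6 libraries. The part of these cells in the levels of the 9 genes was not tested.

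Other cells that express members of the group were followed through their markers. The 5 markers of dentate granule neurons, which also use Neurod1, summed to between 76.2 and 122 CPM in forebrain. They summed to between 100.5 and 160 in midbrain and between 44.0 and 67.1 in hindbrain. Of the 5, 4 were called lower and 0 higher in hindbrain than in midbrain, against 25.1% and 24% of all genes tested. Between hindbrain and forebrain 1 was higher and 2 were lower, against 25.3% and 26.4%. Between midbrain and forebrain 2 were higher and 0 lower, against 9.96% and 9.38%. Of the 4 markers of cortical layer 5 neurons, which use Etv1, 3 were called lower in hindbrain than in forebrain and in midbrain. Of all genes tested, 26.4% and 25.1% were called lower in these comparisons. The list of 4 had a median log2 difference of hindbrain of -4.63 from forebrain and of -4.23 from midbrain. The fourth marker, Pcp4, which Purkinje cells also express, is named after its values were seen. In hindbrain it differed from forebrain by 0.17 and was not called, but it was called higher in hindbrain than in midbrain. The 4 together summed to between 427 and 518 CPM in forebrain, between 330 and 396 in midbrain and between 262 and 462 in hindbrain. The 6 tectum and midbrain markers summed to between 3.44 and 7.41 CPM in forebrain, between 33.5 and 52.5 in midbrain and between 37.5 and 52.0 in hindbrain. Of these 6, 4 were called lower and 1 higher in hindbrain than in midbrain, against 25.1% and 24% of all genes tested. The part of these cells in the levels was not tested.

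Hindbrain and midbrain were then compared with each other. Of the 9 genes, 6 were called higher in hindbrain, namely Neurod1, Zic1, Zic2, Zic4, Cbln1 and Cbln3, and Barhl1 was called lower, while Fat2 and Etv1 did not pass the test. Over all genes tested, edgeR called 49.1%, 24% as higher in hindbrain and 25.1% as lower, and 26.9% did not overlap, including 10.9% higher in hindbrain. Zic1 was the only one of the 9 genes whose libraries did not overlap, with 83.1 to 157 CPM in midbrain and 167 to 342 in hindbrain. Its log2 difference was 1.01 ± 0.18 (SE) (edgeR, adjusted p = 0.000203). Zic4 differed by 1.37 (adjusted p = 0.000132), Cbln3 by 1.25 (adjusted p = 0.0163), Cbln1 by 1.10 (adjusted p = 0.000474), Neurod1 by 1.04 (adjusted p = 0.00387) and Zic2 by 0.56 (adjusted p = 0.00953), all from edgeR. The call of Zic2 was lost without Fmr1CRE replicate 1, at 0.35, without wild-type replicate 1, at 0.45, and in wild-type libraries alone, at 0.29. That of Cbln3 was lost without Fmr1CRE replicate 1, at 0.90, without wild-type replicate 1, at 1.06, without both mice of replicate 3, at 1.32, and in wild-type libraries alone, at 0.91.

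Fat2 had a log2 difference of 0.61 ± 0.43 (SE) between hindbrain and midbrain, its interval running from -0.31 to 1.54 (edgeR, adjusted p = 0.258). Without Fmr1CRE replicate 2, whose midbrain had 85.7 and whose hindbrain had 51.9 CPM of Fat2, the difference was 1.10 and passed the test (edgeR, adjusted p = 0.00328). Etv1 differed by -0.03 with an interval from -0.27 to 0.21 (edgeR, adjusted p = 0.862), and its sign turned with total counts alone, at 0.05. Barhl1 was lower in hindbrain by 1.01 ± 0.26 (SE) on the log2 scale (edgeR, adjusted p = 0.00406). Its midbrain levels were 3.91 to 8.49 CPM, its hindbrain levels 1.98 to 4.58 CPM, and its difference was -1.70 in wild-type libraries alone. Without Fmr1CRE replicate 2 and both mice of replicate 3 it was -0.82 and did not pass (edgeR, adjusted p = 0.0645).

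Within mice, the ratio of hindbrain to midbrain spanned a wide range. Cbln3 was higher in hindbrain in 6 of 6 mice, from 1.03-fold in Fmr1CRE replicate 2 to 8.39-fold in Fmr1CRE replicate 1. Zic1, Zic2, Zic4 and Cbln1 were also higher in 6 of 6 mice, with highest ratios of 4.12-fold, 3.14-fold, 4.68-fold and 4.26-fold. Neurod1 was higher in 5 of 6 mice and Fat2 in 4 of 6, from 0.606-fold in Fmr1CRE replicate 2 to 5.58-fold in Fmr1CRE replicate 1. Barhl1 was lower in hindbrain in 5 of 6 mice and Etv1 in 4 of 6. Gabra6, the receptor subunit gene of mature granule neurons, ran from 1.31-fold to 9.63-fold, and Pcp2 from 1.12-fold to 7.77-fold. For 8 of the 9 genes, all but Zic4, Fmr1CRE replicate 1 had the highest ratio and, for Neurod1, Cbln1, Cbln3 and Fat2, Fmr1CRE replicate 2 the lowest.

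**Figure D3:**
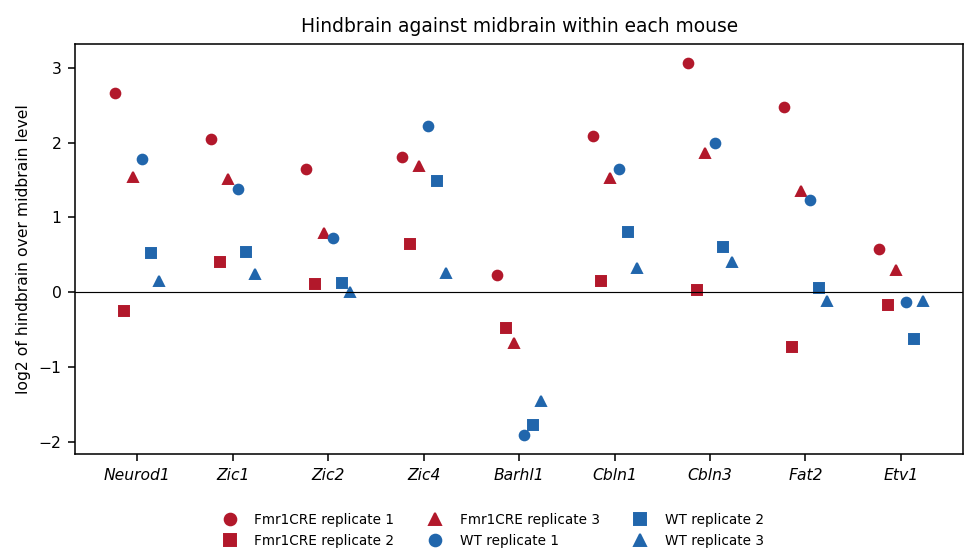
Log2 ratio of hindbrain to midbrain CPM within each mouse for the 9 genes, with Fmr1CRE mice in red, wild-type mice in blue and the symbol giving the replicate. Cbln3 spans from 0.04 to 3.07 between mice, and the 3 wild-type mice have the lowest values of Barhl1, from -1.91 to -1.45.

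The proportions among the genes were examined as the ratio of each gene's count to that of Cbln3 in the same library, which no scaling of libraries can move. These ratios were chosen after the levels had been seen, and are given as a description. None of the 8 passed an exact sign-flip test over the 6 mice after adjustment (lowest adjusted p = 0.0625). The smallest p that this test can give with 6 mice is 0.03125. After adjustment a ratio could pass only if most of the 8 reached that p together, so no conclusion is drawn from the test. Fat2 stood at a median of 0.615 counts per Cbln3 count in midbrain and 0.398 in hindbrain, lower in hindbrain in 6 of 6 mice, with a mean log2 change of -0.61 ± 0.12 (SD, n = 6). Neurod1 went from a median of 0.558 to 0.434, with a mean log2 change of -0.26 ± 0.11 (SD, n = 6), also in 6 of 6 mice. Etv1 and Barhl1 were lower in 6 of 6 mice as well, by mean log2 changes of -1.35 ± 0.89 and -2.33 ± 1.12 (SD, n = 6). Cbln3 itself was higher in hindbrain in 6 of 6 mice, so the ratio falls for a gene that rose less or not at all. The level of Etv1 differed by -0.03 between these regions and was not called by edgeR. Zic1 and Zic2 were lower in 5 of 6 mice, Cbln1 in 4 and Zic4 in 3. The log2 changes of Fat2 and Neurod1 from midbrain to hindbrain had the smallest SD between mice among those of the 8 ratios.

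**Figure D4:**
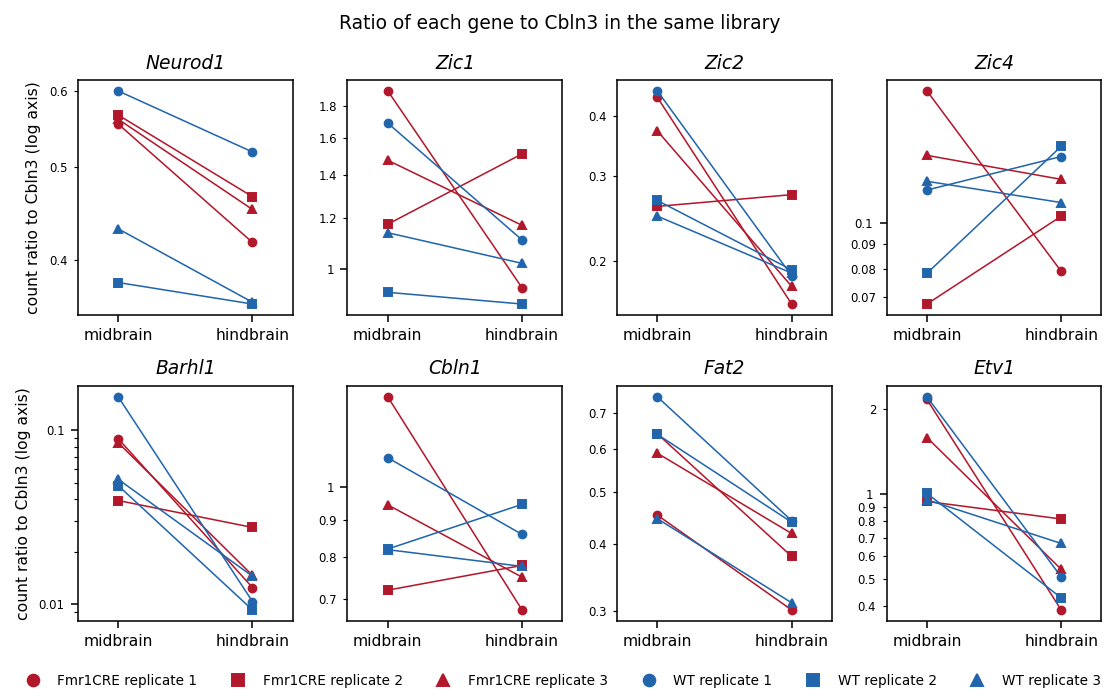
Ratio of each gene's count to the Cbln3 count of the same library in midbrain and hindbrain on a log axis, with a line for each mouse, Fmr1CRE in red and wild type in blue. The lines of Neurod1, Barhl1, Fat2 and Etv1 fall in 6 of 6 mice, and those of Zic4 run in both directions.

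The forebrain of Fmr1CRE replicate 2 held more of some granule neuron genes than the other forebrains. Its Cbln3 count was 188, with an exact Poisson 95% interval from 162 to 217 that covers counting error only, against 17 to 51 in the other 5 forebrains. Its Fat2 count was 150, with an interval from 127 to 176, against 6 to 17 in the others, and Gabra6 stood at 109 counts against 0 to 13. Neurod1, the Zic genes, Barhl1, Cbln1 and Etv1 were not highest in that library, and its Cbln1 level, 10.6 CPM, was the lowest of the 6 forebrains. Its Cbln3 level was 3.48% and its Fat2 level 7.39% of the hindbrain mean. Pcp2 was also highest there, with 33 counts against 0 to 9 in the others, and the part of cerebellar tissue in this library was not tested.

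Profiles over all 18 libraries were compared by the root mean square difference of mean-centred log2 levels among 16306 genes with a mean of at least 1 CPM. The gene nearest to Cbln3 was Fat2, at 0.42, and the gene nearest to Fat2 was Cbln3. Gabra6 at 0.45 and Pcp2 at 0.56 came next for Cbln3. Barhl1 lay nearest to En1, Lhx1 and Irx2, at 0.39, 0.44 and 0.51, all of them homeobox genes. Neurod1 lay nearest to Il20rb, Barhl2 and Gm13944, at 0.28 to 0.29, and Cbln1 to Hes3 and Neurod1, at 0.26 and 0.33. Zic1 lay nearest to Il22, Zic2 to Chn2, Zic4 to Hopx and Etv1 to Tll1, at 0.24, 0.19, 0.33 and 0.14. Likeness here rests on the region, depth and mice that the libraries share.

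Other genes known from granule neurons did not all follow. Of 15 such genes 14 were tested, and between hindbrain and forebrain 5 were higher, 6 lower and 3 not called, with a median log2 difference of -0.19. Gabra6 and Mab21l1 had the largest log2 differences, 8.58 and 4.64, and Slc17a7, the vesicular glutamate transporter that cortical neurons share, and Nfix the smallest, -2.83 and -0.99. Between hindbrain and midbrain there were again 5 higher, 6 lower and 3 not called, with Gabra6 at 1.61, Pax6 at 1.31, Slc17a7 at -2.51 and Nfix at -0.81. Between midbrain and forebrain 4 were higher, led by Gabra6 at 6.98 and Mab21l1 at 4.02, 1 was lower and 9 were not called. Atoh1, the factor of granule cell progenitors, did not pass the filter on low counts.

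Relatives of the 9 genes were followed in the same way. Of 13 family members 3 were higher and 7 lower in hindbrain than in forebrain, with a median log2 difference of -0.70. Barhl2 at 3.74 and Zic5 at 1.14 were the highest, and Neurod6, a factor of cortical pyramidal neurons, at -2.92 and Fat3 at -1.35 the lowest. Barhl2, the closest relative of Barhl1, was higher in hindbrain than in midbrain by 0.80 (edgeR, adjusted p = 0.0122).

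The second question was whether the Fmr1CRE allele changed these genes. None of them was called by edgeR in forebrain, midbrain or hindbrain, in the counts of the 3 regions summed per mouse, or in the test of whether the genotype difference varied between regions. Over all genes tested, edgeR called 0% in forebrain, 0.00543% in midbrain, 0% in hindbrain, 0.00451% in the sums and 0% in the interaction. An unadjusted p under 0.05 was found for 2 of the 8 genes tested in forebrain (Zic4 and Fat2), against 5.43% of all genes, and for 1 of 9 in midbrain (Barhl1), against 6.17%. It was found for 1 of 9 in hindbrain (Barhl1), against 5.13%, for 1 of 9 in the sums (Zic1), against 3.7%, and for 1 of 9 in the interaction (Barhl1), against 7.54%. DESeq2 also called 0 of them in each region and in the sums and called 1, Barhl1, in the interaction. Over all genes tested, DESeq2 called 0.168% in forebrain, 0.337% in midbrain, 0.314% in hindbrain, 0.131% in the sums and 0.25% in the interaction. Of the other granule neuron genes and the family members, edgeR called 0 in any of these comparisons.

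Over all genes tested, the genotypes did not overlap for 11.3% in midbrain and 10.9% in hindbrain. Barhl1 was the gene of this group with the clearest separation of genotypes. In midbrain it stood at 3.91, 5.27 and 5.49 CPM in Fmr1CRE replicates 1, 2 and 3 and at 8.49, 6.73 and 6.47 CPM in wild-type replicates 1, 2 and 3. All Fmr1CRE midbrains lay under all wild-type midbrains, with a log2 fold change of -0.56 ± 0.19 (SE) (edgeR, adjusted p = 0.784). In hindbrain it stood at 4.58, 3.79 and 3.45 CPM in Fmr1CRE and at 2.26, 1.98 and 2.37 CPM in wild-type mice. There all Fmr1CRE libraries lay above all wild-type libraries, with a log2 fold change of 0.83 ± 0.22 (SE) (edgeR, adjusted p = 0.875). The sums of midbrain and hindbrain, 8.49 to 9.05 CPM in Fmr1CRE and 8.71 to 10.8 in wild-type mice, overlapped, and over the 3 regions the log2 fold change was -0.03 with an interval from -0.34 to 0.28. The interaction of genotype and region had an adjusted p of 0.660 from edgeR and of 0.0285 from DESeq2. Without both mice of replicate 3 the log2 fold changes were -0.71 in midbrain and 0.96 in hindbrain, neither of them called. These levels rest on 96 to 195 counts per library in midbrain and 60 to 129 in hindbrain, and in forebrain Barhl1 was too low to be tested.

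En1, the homeobox gene whose profile lay nearest to Barhl1, separated in the same directions. It was picked by likeness over these same libraries, so the shared directions are in part fixed by that choice. It stood at 5.66, 3.68 and 5.25 CPM in Fmr1CRE and 9.06, 5.95 and 6.85 in wild-type midbrain, and in hindbrain at 1.88, 2.96 and 1.43 CPM in Fmr1CRE mice and at 1.32 CPM or less in each wild-type mouse. The 6 markers of tectum and midbrain, En1 among them, summed to between 33.5 and 36.8 CPM in Fmr1CRE midbrain and between 47.6 and 52.5 in wild-type midbrain. In hindbrain they summed to between 39.1 and 52.0 CPM in Fmr1CRE and between 37.5 and 40.2 in wild-type mice. Their part in the Barhl1 difference was not tested.

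Groups did not overlap for 1 of the 8 genes tested in forebrain, against 10.3% of all genes, for 1 of 9 in midbrain, against 11.3%, for 2 of 9 in hindbrain, against 10.9%, and for 1 of 9 in the sums, against 8.08%. Zic4 in forebrain stood at 10.2, 6.05 and 5.79 CPM in Fmr1CRE replicates 1, 2 and 3 and at 11.2, 13.8 and 12.2 CPM in the wild type, a log2 fold change of -0.71 ± 0.26 (SE) (edgeR, adjusted p = 0.806). Etv1 in hindbrain stood at 142, 112 and 127 CPM in Fmr1CRE and at 111, 91.0 and 109 CPM in the wild type, a log2 fold change of 0.28 with an interval from -0.02 to 0.59 (edgeR, adjusted p = 0.875). Zic1 over the 3 regions had a log2 fold change of 0.24 ± 0.08 (SE) (edgeR, adjusted p = 0.998). Without both mice of replicate 3 these log2 fold changes were -0.56 for Zic4, 0.31 for Etv1 and 0.24 for Zic1. Fat2 in forebrain had a log2 fold change of 2.67 with an interval from 0.25 to 5.10 (edgeR, adjusted p = 0.806), and 0.45 without Fmr1CRE replicate 2. Without that library the Cbln3 value in forebrain went from 1.45 to -0.07. With both mice of replicate 3 left out instead, the forebrain values were 3.37 for Fat2 and 1.73 for Cbln3.

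In midbrain the log2 fold changes of the 9 genes ran from -0.56 for Barhl1 to -0.04 for Neurod1, with a median of -0.32, against -0.0046 over all genes tested. Without both mice of replicate 3, those of Neurod1, Zic1 and Zic4 turned to 0.22, 0.13 and 0.0011. In hindbrain 8 of the 9 were above 0, with a median of 0.30, against -0.0091 over all genes tested, and without both mice of replicate 3 those of Cbln1 and Fat2 turned to -0.15 and -0.24. The 7 Purkinje cell markers had medians of -0.39 in midbrain and 0.14 in hindbrain. In midbrain the medians were -0.62 for the 5 of 7 medulla and pons markers tested and -0.55 for those of tectum and midbrain. Choroid plexus markers stood at 0.53. By replicate, the medulla and pons sums were 44.8, 47.2 and 8.59 CPM in wild-type and 14.7, 11.5 and 21.2 in Fmr1CRE midbrain. In hindbrain the medians were -0.06, 0.33 and -0.73 in this order, with 4 of 6 tectum and midbrain markers tested. These lists had the most extreme midbrain medians of the marker lists. Among the others, Purkinje cells were lowest in midbrain at -0.39 and thalamus highest at 0.20. In hindbrain these were cortical layer 5 at -0.23 and olfactory bulb at 0.44. None of these markers was called, and their part in the values of the 9 genes was not tested. In the summed counts the medians came to 0.03 for the 9 genes and 0.00036 for all genes tested. The intervals of the sums bound each gene more tightly than those of single regions, from -0.10 to 0.17 for Etv1 and from -0.29 to 0.51 for Cbln3.

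**Figure D5:**
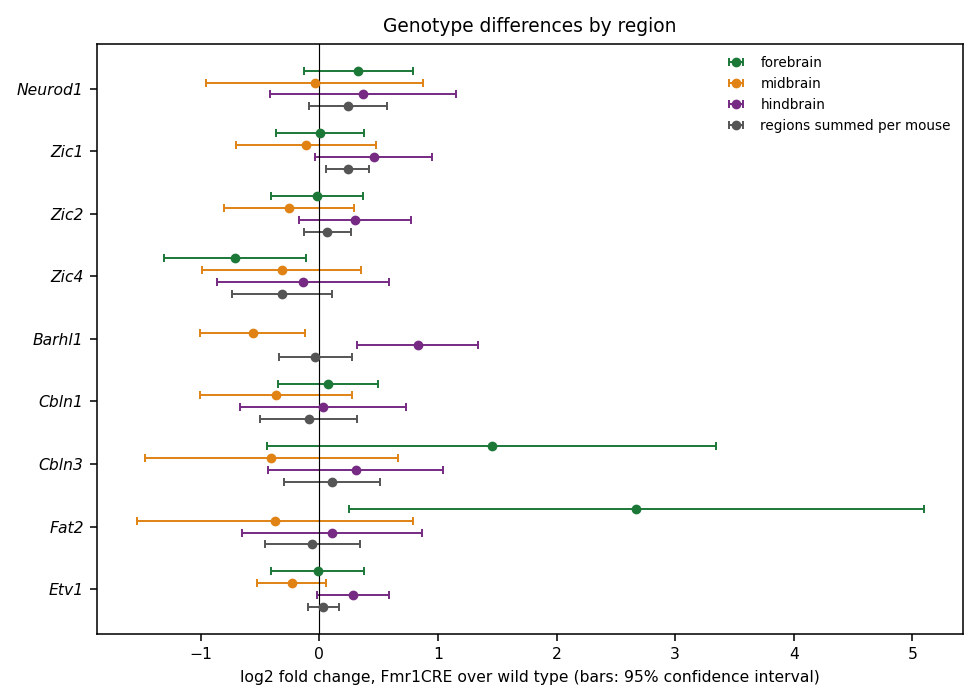
Log2 fold change of Fmr1CRE over wild-type mice for the 9 genes in forebrain, midbrain, hindbrain and the counts summed over regions per mouse, with 95% confidence intervals as bars. Barhl1 lies at -0.56 in midbrain and 0.83 in hindbrain, and the widest intervals are those of Cbln3 and Fat2 in forebrain.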

How the data were processed

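Poly(A) RNA of 18 libraries, from 3 regions of 6 mice, was analysed. Gene counts, as the authors deposited them, are unnormalised salmon estimates that were summed per gene and rounded. They also deposited estimated counts per transcript (bcbio_nextgen, Salmon 0.14.0 and DESeq2 1.30.1, mm10, per the labels). The deposited estimated counts were used only pooled over all 18 files, for effective lengths and transcript shares, since most files name another library than the record that holds them. The deposited variance-stabilized values were not used here. Symbols and positions came from GENCODE M21, and promoters from RefSeq.

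Genotypes and regions were compared with edgeR 4.0.16 in R 4.3.3 (TMM, default filter, quasi-likelihood test, Benjamini-Hochberg adjustment over all genes tested, threshold 0.05). The filter left 18467 genes in forebrain, 18400 in midbrain, 19112 in hindbrain, 22191 in the sums and 20363 in the fits of all libraries. In fits of all libraries, regions from 1 mouse were treated as separate samples. The alternatives were DESeq2 1.42.0, other scalings and filters, the mouse or the replicate number as a block, and libraries left out. The fit without Fmr1CRE replicate 2 and both mice of replicate 3 was chosen after seeing the data. The tests were tested on simulated data. The 9 genes and all lists were chosen with earlier results of these data known. For each list, the genes named were those with the largest and the smallest log2 differences, and for each of the 9 genes the nearest profiles and overlapping or neighbouring genes. Some genes of the lists are not reported here. Profiles used a pseudocount of 0.5 CPM.

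Regions with the same genotype and number come from the same mouse, and their deviations from the group means correlated between -0.17 and 0.178. Between genotypes the libraries share only a number.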

Additional observations from a re-analysis of the deposited data

Results flagged for a closer look

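The level of each of the 9 genes was examined for a single outlying library among the 6 libraries of a region, in 27 groups, of which chance flags about 1 in 20. A library stood apart in 4 of them. In forebrain, Fmr1CRE replicate 2 had 7.73 CPM of Cbln3 and 6.17 CPM of Fat2, with gaps to the next library of 0.813 and 0.931 of the whole range. Also in forebrain, Fmr1CRE replicate 3 had 0.468 CPM of Barhl1, which is 11 counts, with a gap of 0.666. In hindbrain, Fmr1CRE replicate 1 had 59.8 CPM of Zic2, with a gap of 0.625.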

How the results depend on the processing

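The number of the 9 genes called was 0 in each region and in the sums under every alternative, 7 to 9 for hindbrain against forebrain (7 where a minimum of 10 counts in every library left 7 tested), 5 to 8 for hindbrain against midbrain and 6 to 8 for midbrain against forebrain, and 7 or 8 genes were highest in hindbrain. In the interaction it was 0 with edgeR and 1 with DESeq2, Barhl1, which called 51 of 20363 genes there. With the mouse as a replicate block, 9, 7 and 8 genes were called in the region comparisons and 0 in the interaction, and the block changed no call. With the number as a replicate block, which pairs nothing but numbers (correlations from -0.12 to 0.0693), 0 were called, and the log2 fold changes of Zic1 in forebrain and Cbln1 in hindbrain turned to -0.0093 and -0.014. The 9 genes are well covered in hindbrain, where Barhl1 was lowest at 60 to 129 counts. In forebrain depth limits Barhl1, at 0 to 11 counts, and Fat2, at 6 to 17 counts outside Fmr1CRE replicate 2.

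Other signs turned as follows. In forebrain Zic2 and Etv1 turned to 0.011 and 0.018 with total counts, and Zic1 to -0.0034 with no filter, -0.023 in 1 fit of all 18 libraries and -0.12 without both mice of replicate 3, where Cbln1 turned to -0.15. Without these mice, Neurod1, Zic1 and Zic4 in midbrain turned to 0.22, 0.13 and 0.0011, Cbln1 and Fat2 in hindbrain to -0.15 and -0.24, and Zic4 for midbrain against forebrain to -0.21. The latter was -0.19 in wild-type libraries and -0.40 without Fmr1CRE replicate 2 and both mice of replicate 3. Etv1 for hindbrain against midbrain was 0.052 with total counts, 0.020 with at least 10 counts in every library and 0.092 in that last fit. The cause was not tested.

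With 1 library or mouse left out in turn, the log2 differences whose sign turned had these ranges. For the genotype difference in forebrain they were -0.15 to 0.10 for Zic2, -0.24 to 0.089 for Etv1, -0.069 to 2.02 for Cbln3, -0.18 to 0.10 for Zic1 and -0.073 to 0.22 for Cbln1. For that in midbrain they were -0.62 to 0.26 for Neurod1, -0.43 to 0.057 for Zic1 and -0.59 to 0.011 for Zic4. For that in hindbrain they were -0.29 to 0.30 for Cbln1, -0.10 to 0.60 for Cbln3, -0.14 to 0.38 for Fat2 and -0.35 to 0.14 for Zic4 (-0.51 without both mice of replicate 3). For that in the sums they were -0.10 to 0.041 for Barhl1, -0.12 to 0.24 for Cbln3, -0.28 to 0.065 for Cbln1 and -0.24 to 0.16 for Fat2. For hindbrain against midbrain they were -0.12 to 0.064 for Etv1. For midbrain against forebrain they were -0.13 to 0.21 for Zic4.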

Other observations

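Transcript estimates pooled over all 18 libraries put 35.2% of the Cbln1 reads on the processed transcript Cbln1-203, 42.6% on Cbln1-202 and 22.2% on Cbln1-201. The estimate for Zic4 was 56.4% on Zic4-201 and 21.5% on the retained intron transcript Zic4-211. Cbln3 had its whole estimate on Cbln3-201 and 0 reads on Cbln3-202. Fat2 had 71.9% on Fat2-202 and 28.1% on Fat2-201. The lincRNA Gm2694, antisense to Cbln1, averaged 4.63 CPM in forebrain, 12.5 in midbrain and 35.9 in hindbrain.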
